A study of Mus musculus with 5 samples.

Results

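The nuclear genes that encode the succinate dehydrogenase, cytochrome bc1, cytochrome c oxidase and ATP synthase complexes of mitochondria, with cytochrome c, were examined in mouse liver. The set was a fixed list of 40 gene symbols matched to the deposited table, 4 for complex II, 10 for complex III with cytochrome c, 11 for complex IV and 15 for ATP synthase (complex V). All 40 were found among the 11065 rows, and all 40 were among the 10542 genes that reached a value of 10 in at least 2 libraries and were tested. RNA was sequenced from livers of db/db mice. These mice lack a working leptin receptor and become obese and diabetic, and both groups carried this genotype. The vehicle group (3 libraries) and the SR4 group (2 libraries, 10 mg/kg by oral gavage) received their doses over 5 weeks, and acclimatization had taken 1 week. The submitters call SR4 a transporter of protons that fatty acids activate. The labels used here state neither the age and sex of the mice nor whether each library stands for 1 animal. P-values therefore reflect the spread among these libraries, and that spread may be technical.

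Complexes II, III and IV pass electrons from fuel oxidation to oxygen. Complex II oxidises succinate and also serves as an enzyme of the citric acid cycle, complex III hands electrons to the soluble carrier cytochrome c, and complex IV reduces oxygen to water. Complexes III and IV pump protons out of the matrix as they work, and ATP synthase uses the returning protons to make ATP, which in liver pays for glucose, urea and protein synthesis. Part of complexes III, IV and V is encoded in mitochondrial DNA. The symbols of 6 such subunits were searched, and 0 of them were found among the deposited rows, so those subunits were not analysed here.

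None of the 40 genes passed an adjusted p of 0.05 in limma, against 139 of all 10542 genes (1.32%; 0.436% higher and 0.882% lower). The smallest adjusted p among them was 0.152. At an unadjusted p under 0.05, 5 of the 40 were higher in SR4 (10.2% of all genes) and 0 were lower (11.1% of all genes). These 5 were Sdhb, Sdhc, Uqcrfs1, Atp5d and Atp5g1. The fitted change lay above 0 for 33 of the 40 genes, against 49% of all genes, and the median log2 fold change was 0.18 against -0.01 over all genes. With the deposited equal totals alone, without TMM scaling, 24 of the 40 lay above 0 and the median over all genes was -0.13. Both SR4 libraries exceeded all 3 vehicle libraries for 15 genes (21.1% of all genes), and Cycs was the 1 gene for which both lay below (20.5%). With equal totals, 6 genes lay above in both SR4 libraries (12.1% of all genes) and 2 lay below in both (31.8%).

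The 2 SR4 libraries stood apart from each other across the set. SR4 library 2 was above SR4 library 1 for 39 of 40 genes (49.4% of all genes), with Cox7a2l as the exception; with equal totals the count was also 39 (51.6% of all genes). The ratio of SR4 library 2 to SR4 library 1 had a median of 1.33 over the 40 genes (range 0.960 to 2.28), while over all genes it was 0.997. That ratio was larger than the ratio of the highest to the lowest vehicle library for 34 of the 40 genes, whose vehicle ratio had a median of 1.15. The share of all genes for that count and the vehicle ratio over all genes were not computed. Whether the count is unusual in this table is therefore not known. Each SR4 library is therefore also given alone below. Both single-library comparisons use the same 3 vehicle libraries as control. In bulk liver RNA, fewer cells of a type and less RNA per cell cannot be told apart.

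**Figure D1:**
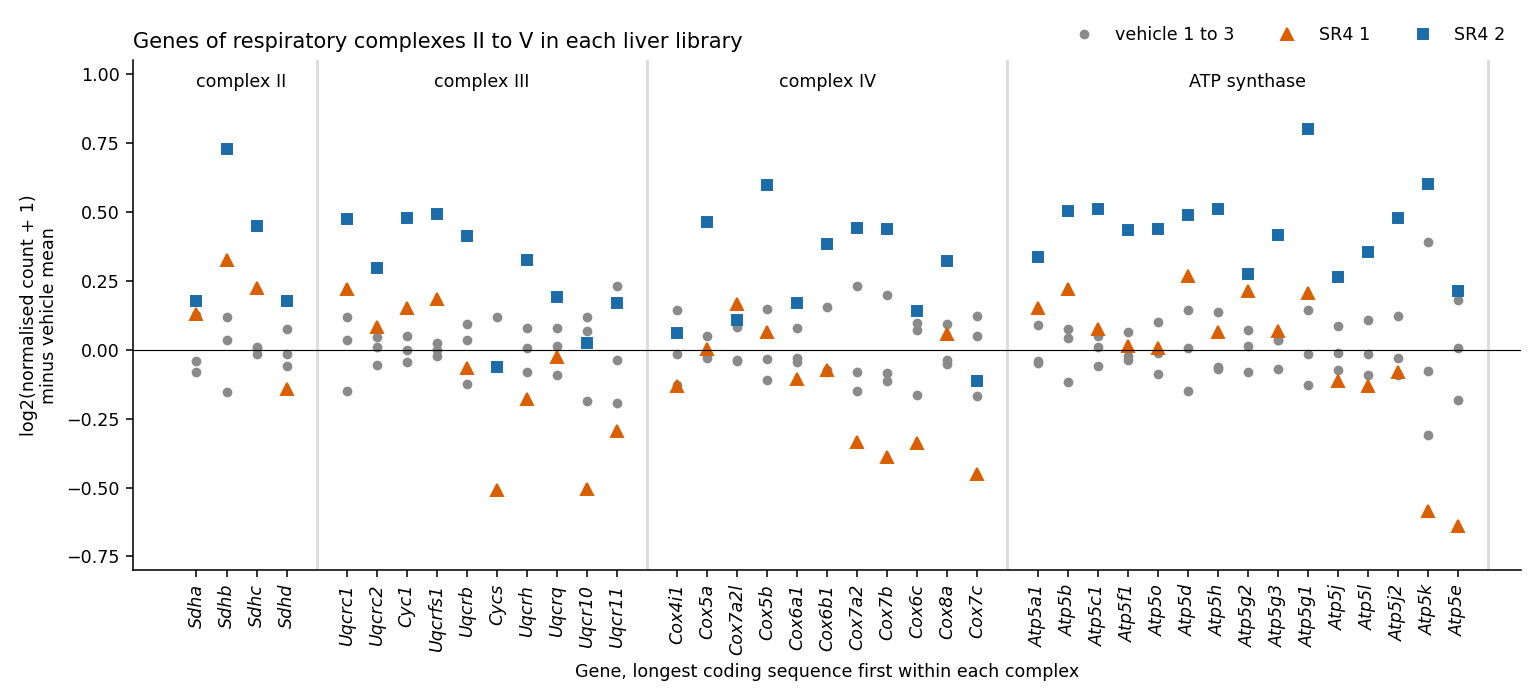
Difference of each library from the mean of the 3 vehicle libraries, on the log2(normalised count + 1) scale, for the 40 genes (x axis) in 4 complexes. Grey points are the vehicle libraries; the squares of SR4 library 2 lie above the triangles of SR4 library 1 for 39 of 40 genes.

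Read totals recovered from the deposited values were 22878374 to 26768092 for the vehicle libraries and 26407519 to 28113096 for the SR4 libraries. The 40 genes carried 643 to 56006 recovered reads per gene and library. Normalised counts below are per library of 25494249, with means given ± SD (n = 3 for vehicle and n = 2 for SR4), and log2 fold changes are SR4 minus vehicle on the log2(value + 1) scale.

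The promoters of 4 of the genes are shown because they hold, in capitals, the letters of motifs long known as the sites of 2 regulators of respiratory genes. Windows of 250 bases before to 50 after the annotated start were available for 32 of the 40 genes (RefSeq, GRCm38.p6). The NRF1 motif, searched as the half-site GCGCA followed directly by its reverse complement TGCGC and therefore the same on both strands, was found in 4 of the 32 (Uqcrc1, Cox6a1, Atp5g2 and Atp5k; 12.5%), against 1.07% of 27025 genes with a window. The core of the GABP (ETS) site, CCGGAAG or CTTCCGG on the other strand, was found in 12 of the 32 (37.5%), against 9.93% of all genes. The 12 were Sdhb, Sdhd, Uqcrh, Uqcr11, Cox6a1, Cox6b1, Cox8a, Atp5e, Atp5h, Atp5j, Atp5k and Atp5l. The windows printed are chr4:140961021-140961320 on the + strand (Sdhb, GABP core), chr9:108936398-108936697 on the + strand (Uqcrc1, NRF1), chr5:115348909-115349208 on the - strand (Cox6a1, both) and chr5:108434350-108434649 on the - strand (Atp5k, both). The matches do not overlap each other. The 27025 genes were not limited to genes tested here, and the shares among tested genes were not computed. A match is a description of the letters and not of binding.
Sdhb: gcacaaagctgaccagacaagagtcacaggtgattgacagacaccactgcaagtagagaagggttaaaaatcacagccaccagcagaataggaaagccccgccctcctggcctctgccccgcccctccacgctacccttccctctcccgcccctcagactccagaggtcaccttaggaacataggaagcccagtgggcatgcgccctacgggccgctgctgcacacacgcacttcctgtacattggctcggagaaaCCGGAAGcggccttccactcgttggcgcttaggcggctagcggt
Uqcrc1: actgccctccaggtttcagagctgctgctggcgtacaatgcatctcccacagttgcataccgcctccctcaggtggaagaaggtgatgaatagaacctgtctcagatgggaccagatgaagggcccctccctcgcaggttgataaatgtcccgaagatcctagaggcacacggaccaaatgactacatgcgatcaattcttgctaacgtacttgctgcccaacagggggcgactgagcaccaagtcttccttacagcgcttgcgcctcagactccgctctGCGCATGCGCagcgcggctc
Cox6a1: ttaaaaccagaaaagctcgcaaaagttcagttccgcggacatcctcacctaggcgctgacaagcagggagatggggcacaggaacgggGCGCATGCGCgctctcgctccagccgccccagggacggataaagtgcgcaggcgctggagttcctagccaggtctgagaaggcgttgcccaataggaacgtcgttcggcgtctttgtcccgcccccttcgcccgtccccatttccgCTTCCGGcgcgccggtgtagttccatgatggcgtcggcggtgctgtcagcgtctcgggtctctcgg
Atp5k: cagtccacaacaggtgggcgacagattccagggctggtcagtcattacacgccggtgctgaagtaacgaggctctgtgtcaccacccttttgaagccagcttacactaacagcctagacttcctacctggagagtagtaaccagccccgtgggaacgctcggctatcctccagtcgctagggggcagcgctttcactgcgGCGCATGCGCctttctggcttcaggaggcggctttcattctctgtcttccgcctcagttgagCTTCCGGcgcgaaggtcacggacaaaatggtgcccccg

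In complex II, 3 of the 4 genes were higher in both SR4 libraries than in any vehicle library (21.1% of all genes), or 2 of the 4, Sdhb and Sdhc, with equal totals (12.1%). The summed normalised count of the 4 genes did not overlap between the groups under TMM scaling, but with equal totals SR4 library 1 lay inside the vehicle range. That sum was 33781, 36796 and 35114 in vehicle libraries 1, 2 and 3, and 39011 and 44852 in SR4 libraries 1 and 2. With equal totals the vehicle sums ran from 35701 to 37099, and the SR4 sums were 36922 and 42940. The median log2 fold change was 0.24, with 0.18 for SR4 library 1 alone and 0.31 for SR4 library 2 alone.

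Sdhb, the iron-sulfur subunit that relays electrons from the flavin towards ubiquinone, is annotated at chr4:140961203-140979193 (GRCm38, protein-coding). Counts were 6417, 7310 and 7752 in the vehicle libraries and 8940 and 11804 in SR4 libraries 1 and 2. Both SR4 values lay above the highest vehicle value, and the SR4 libraries differed from each other by more than the vehicle libraries did. Its mean was 7160 ± 680 in vehicle and 10372 ± 2025 in SR4, a log2 fold change of 0.53 (95% interval 0.12 to 0.93), the largest of the 40. The adjusted p from limma was 0.152. edgeR on recovered reads gave an adjusted p of 0.145 (1.3% of all genes called), whereas DESeq2 on the same reads gave 0.037 with a log2 fold change of 0.54. DESeq2 called 10.2% of all genes, and Sdhb was the only one of the 40 that it called.

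Sdhc and Sdhd encode the membrane anchor that binds haem and ubiquinone. Sdhc, at chr1:171127165-171150603, was counted at 5942, 6042 and 6029 in the vehicle libraries and at 7010 and 8187 in the SR4 libraries. The vehicle libraries were close together and both SR4 libraries lay above them, with a log2 fold change of 0.34 (95% interval 0.03 to 0.64, adjusted p = 0.201). Sdhd was counted at 5877, 5526 and 5362 in vehicle and at 5060 and 6303 in SR4, so that 1 SR4 library lay below and 1 above all vehicle libraries. Its log2 fold change was 0.02 (adjusted p = 0.961). Sdha, the flavoprotein that oxidises succinate, was counted at 15545, 17918 and 15971 in vehicle and at 18001 and 18558 in SR4. SR4 library 1 exceeded vehicle library 2 by less than the spread among the vehicle libraries, and the log2 fold change was 0.15 (adjusted p = 0.593). With equal totals both SR4 libraries lay within the vehicle range for Sdha.

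In complex III, 4 of the 10 genes, Uqcrc1, Uqcrc2, Uqcrfs1 and Cyc1, stood above the vehicle range in both SR4 libraries (21.1% of all genes). With equal totals this held for 2 of the 10, Uqcrc1 and Uqcrfs1 (12.1%), while SR4 library 1 lay within the vehicle range for Uqcrc2 and Cyc1. The median log2 fold change over the 10 genes was 0.13. It was -0.05 for SR4 library 1 alone, with 4 genes above and 4 below the vehicle range (31.7% and 31.5% of all genes). For SR4 library 2 alone it was 0.31, with 7 above and 1 below (34.1% and 35.8% of all genes). The summed normalised count was 53578, 53780 and 55607 in vehicle and 54830 and 68184 in SR4. With equal totals the vehicle sums ran from 54224 to 57681, and the SR4 sums were 51894 and 65277. The sum of SR4 library 1 then lay below the vehicle range and not inside it. By gene, SR4 library 1 with equal totals was above the range for 2 and below it for 6 (18.5% and 46.7% of all genes).

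The catalytic subunits of complex III are the Rieske iron-sulfur protein (Uqcrfs1), cytochrome c1 (Cyc1) and the mitochondrially encoded cytochrome b. Uqcrfs1, at chr13:30540308-30545362, was counted at 6455, 6660 and 6552 in vehicle and at 7442 and 9207 in SR4. Its log2 fold change was 0.34 (95% interval 0.00 to 0.67, adjusted p = 0.231). Cyc1 was counted at 7276, 7511 and 7768 in vehicle and at 8342 and 10452 in SR4, a log2 fold change of 0.31 (adjusted p = 0.275). For both genes the vehicle libraries lay close together and SR4 library 2 stood well above SR4 library 1.

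The 2 large core proteins, Uqcrc1 and Uqcrc2, hold the complex together on its matrix side. Uqcrc1 was counted at 8407, 10113 and 9546 in vehicle and at 10854 and 12955 in SR4, with a log2 fold change of 0.35 (adjusted p = 0.259). Uqcrc2 was counted at 8618, 8416 and 8043 in vehicle and at 8833 and 10255 in SR4, with a log2 fold change of 0.19 (adjusted p = 0.466). SR4 library 1 exceeded the highest vehicle library by little for Uqcrc2 and by more for Uqcrc1.

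Cytochrome c, encoded by Cycs, carries electrons from complex III to complex IV. Its counts were 3587, 3173 and 3169 in vehicle and 2320 and 3159 in SR4. SR4 library 2 lay just under the lowest vehicle library, and SR4 library 1 was the lower of the 2. The log2 fold change was -0.29 (95% interval -0.66 to 0.09, adjusted p = 0.343), the lowest of the 40.

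The other 5 genes of complex III encode small subunits without cofactors. Uqcrq had the highest level per kilobase of transcript in the complex, 18782 normalised counts per kb in vehicle. Its counts ran at 7674, 7126 and 8021 in vehicle and at 7449 and 8660 in SR4, so SR4 library 1 lay within the vehicle range (log2 fold change 0.08, adjusted p = 0.779). Of Uqcrb, Uqcrh, Uqcr10 and Uqcr11, the first 2 had log2 fold changes of 0.17 and 0.07 and the last 2 of -0.24 and -0.06, with adjusted p-values from 0.49 to 0.88. SR4 library 1 was below the vehicle range for Uqcrh, Uqcr10 and Uqcr11.

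In complex IV, no gene reached an unadjusted p under 0.05 (21.4% of all genes), and 1 of 11 genes lay above the vehicle range in both SR4 libraries (21.1% of all genes). With equal totals 0 of 11 did (12.1%). The median log2 fold change was 0.05, with -0.11 for SR4 library 1 alone, 0.32 for SR4 library 2 alone, and -0.066 for both with equal totals in place of TMM scaling. In SR4 library 1, 1 gene lay above and 6 lay below the vehicle range (31.7% and 31.5% of all genes). In SR4 library 2, 9 lay above and 0 below (34.1% and 35.8% of all genes). For Cox6a1, Cox6c, Cox7a2 and Cox7b, SR4 library 1 was below and SR4 library 2 above all vehicle libraries (3.72% of all genes). The summed normalised count was 51564, 48575 and 54025 in vehicle and 47528 and 61699 in SR4, so the SR4 libraries lay on either side of the vehicle libraries. With equal totals they did so too, at 44983 and 59068 against 48976 to 55514 in vehicle. By gene, SR4 library 1 with equal totals was above the range for 0 and below it for 8 (18.5% and 46.7% of all genes).

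The nuclear subunits of complex IV surround a catalytic core that is encoded in mitochondrial DNA. Cox5a and Cox5b sit on its matrix side. Cox5b was counted at 3001, 3159 and 3582 in vehicle and at 3386 and 4893 in SR4 (log2 fold change 0.33, adjusted p = 0.337). Cox5a was counted at 3507, 3534 and 3708 in vehicle and at 3582 and 4930 in SR4 (log2 fold change 0.23, adjusted p = 0.438). In both genes SR4 library 1 lay within the vehicle range and SR4 library 2 above it.

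Cox7a2l encodes a relative of the Cox7a subunits that links complex III to complex IV in supercomplexes. Vehicle and SR4 libraries counted it at 2474, 2278 and 2271 and at 2623 and 2519, respectively. Both SR4 libraries exceeded all vehicle libraries, and it was the 1 gene of the 40 in which SR4 library 1 was the higher (log2 fold change 0.14, adjusted p = 0.502). Cox7c, a small membrane subunit, was counted at 1824, 1569 and 1919 in vehicle and at 1291 and 1632 in SR4 (log2 fold change -0.28, adjusted p = 0.319). SR4 library 1 lay below the vehicle range and SR4 library 2 within it.

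Cox8a and Cox6a1 are the forms of their subunits that most tissues outside muscle use. Cox8a was counted at 6399, 6345 and 7006 in vehicle and at 6846 and 8207 in SR4 (log2 fold change 0.19, adjusted p = 0.477). Cox6a1, the highest of complex IV per kilobase at 15753 normalised counts per kb in vehicle, was counted at 8701, 8794 and 9489 in vehicle and at 8345 and 10091 in SR4. Its log2 fold change was 0.03 (adjusted p = 0.927), with the SR4 libraries on either side of the vehicle range. Cox4i1, Cox6b1, Cox6c, Cox7a2 and Cox7b had log2 fold changes from -0.10 to 0.15, with adjusted p-values from 0.646 to 0.966.

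In ATP synthase, both SR4 libraries lay above the vehicle range for 7 of the 15 genes (21.1% of all genes), or for 2, Atp5d and Atp5g2, with equal totals (12.1%). The 7 were Atp5a1, Atp5b, Atp5c1, Atp5d, Atp5g1, Atp5g2 and Atp5g3. The summed normalised count of its 15 genes was 131727, 133984 and 131344 in vehicle and 143844 and 178679 in SR4, a ratio of means of 1.22, against 1.19 for complex II, 1.13 for complex III and 1.06 for complex IV. Most of that sum came from Atp5a1 and Atp5b. Without these genes, a setting chosen after the values were seen, the other 13 summed to 57230, 55394 and 61255 in vehicle and to 59122 and 78728 in SR4, so SR4 library 1 lay inside the vehicle range. With equal totals the 15 genes summed to 133541 to 141816 in vehicle and to 136142 and 171061 in SR4, again with SR4 library 1 inside the range. The median log2 fold change was 0.24, with 0.06 for SR4 library 1 alone and 0.44 for SR4 library 2 alone. All 15 genes were above the vehicle range in SR4 library 2 (34.1% of all genes). In SR4 library 1, 7 were above and 4 below (31.7% and 31.5% of all genes). With equal totals 14 were above in SR4 library 2 (23.9% of all genes). In SR4 library 1, 2 were then above and 6 below (18.5% and 46.7% of all genes). Differences between the complexes were not tested.

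**Figure D2:**
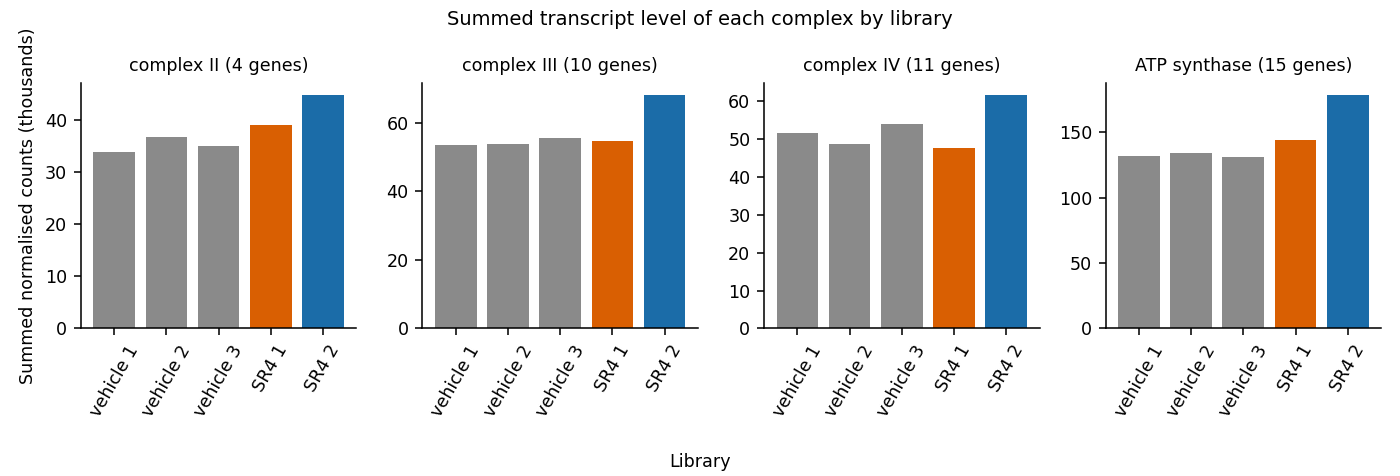
Summed normalised count (in units of 1000, y axis from 0) of the genes of each complex in each of the 5 libraries. SR4 library 2 is the highest bar in all 4 panels; SR4 library 1 is above the vehicle libraries for complex II and ATP synthase, though not with equal totals in place of TMM scaling, and the lowest bar for complex IV (47528).

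The F1 head of ATP synthase makes ATP. Atp5b, its catalytic beta subunit, had the highest level per kilobase of the 40 genes, 20841 normalised counts per kb in vehicle. It was counted at 41070, 41951 and 36771 in vehicle and at 46464 and 56477 in SR4, with a log2 fold change of 0.36 (95% interval -0.07 to 0.79, adjusted p = 0.302). Its partner in the head, the alpha subunit Atp5a1, had a mean of 34461 ± 1887 in vehicle and 40866 ± 3688 in SR4 (log2 fold change 0.24, adjusted p = 0.439). In both genes SR4 library 1 also exceeded all vehicle libraries under TMM scaling, and neither did so with equal totals. Atp5a1 is given as the partner of Atp5b, outside the rule for full values.

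The gamma, delta and epsilon subunits form the shaft that turns inside the head. Atp5d, the delta subunit at chr10:80138632-80145818, was counted at 6896, 7676 and 8444 in vehicle and at 9196 and 10720 in SR4. Its log2 fold change was 0.38 (95% interval 0.02 to 0.74, adjusted p = 0.217), with no overlap between the groups. Atp5c1, the gamma subunit, was counted at 5870, 5439 and 5700 in vehicle and at 5965 and 8062 in SR4 (log2 fold change 0.29, adjusted p = 0.341). SR4 library 1 was close to the highest vehicle library and SR4 library 2 was far above it. Atp5e, the epsilon subunit, was singled out after its values were seen because SR4 library 1 lay far below the vehicle range. It was counted at 3627, 3184 and 4090 in vehicle and at 2318 and 4187 in SR4 (log2 fold change -0.21, adjusted p = 0.669).

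Atp5g1, Atp5g2 and Atp5g3 encode the same mature subunit c, which forms the rotating ring of the membrane part. Atp5g1, at chr11:96068852-96075670, was counted at 3477, 3751 and 4199 in vehicle and at 4375 and 6618 in SR4. SR4 library 1 lay just above the highest vehicle library and SR4 library 2 was the highest by a wide margin. The log2 fold change was 0.50 (95% interval 0.04 to 0.96, adjusted p = 0.203), with 0.20 without SR4 library 2 and 0.80 without SR4 library 1. Atp5g2 was counted at 2585, 2420 and 2688 in vehicle and at 2968 and 3096 in SR4, and the SR4 libraries were close together here (log2 fold change 0.24, adjusted p = 0.259). Atp5g3 was counted at 12542, 11659 and 12515 in vehicle and at 12820 and 16296 in SR4 (log2 fold change 0.24, adjusted p = 0.426). Per kilobase of transcript, Atp5g3 was the highest of the 3 in vehicle at 17141 normalised counts per kb, against 6391 for Atp5g1 and 5815 for Atp5g2. The 3 transcripts share sequence, and how the authors' counting treated reads that match several genes was not stated in the labels.

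Atp5f1, Atp5h, Atp5j and Atp5o encode the side stalk that keeps the head from turning, and their log2 fold changes were 0.22, 0.29, 0.07 and 0.22 (adjusted p from 0.344 to 0.812). The small membrane subunits Atp5j2, Atp5k and Atp5l, which help ATP synthase to pair and bend the membrane, had log2 fold changes of 0.20, 0.01 and 0.11 (adjusted p from 0.556 to 0.992). Atp5k had the widest gap between the SR4 libraries and was singled out after its values were seen. Vehicle counts were 875, 744 and 1209 and SR4 counts 616 and 1401, so that the SR4 libraries enclosed the vehicle range.

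**Figure D3:**
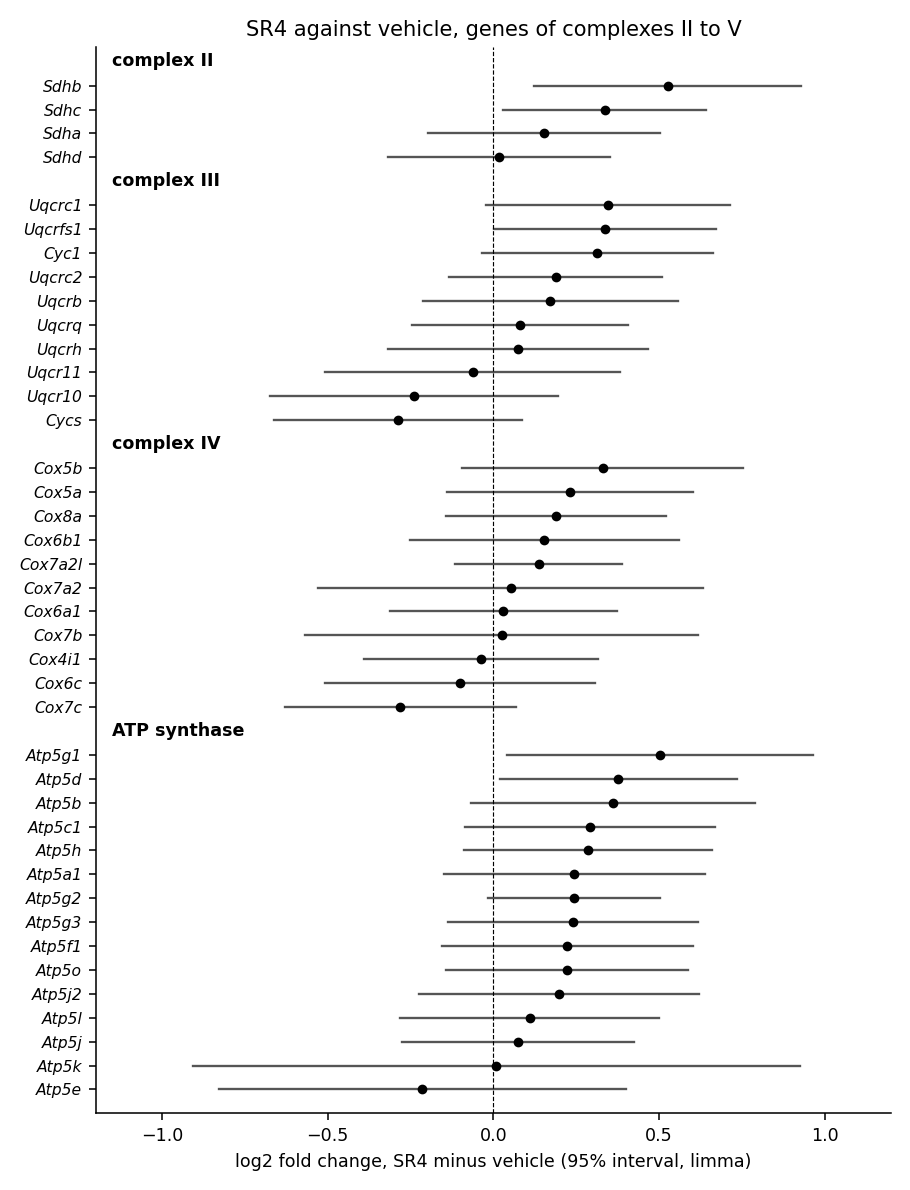
Log2 fold change of SR4 minus vehicle (points) with 95% intervals from limma (bars) for the 40 genes, grouped by complex and ordered within each. The points of 33 genes lie to the right of 0, and the bars of 5 genes (Sdhb, Sdhc, Uqcrfs1, Atp5d and Atp5g1) do not reach 0.

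Fitted against the 3 vehicle libraries alone, the SR4 libraries gave different pictures. In this fit the lone SR4 library is assumed to vary as the vehicle libraries did. With SR4 library 2 alone, 38 of 40 genes had a fitted change above 0, 16 were higher at an unadjusted p under 0.05 (9.2% of all genes) and 0 were lower (12.3%). None passed after adjustment (1.82% of all genes), and the smallest adjusted p was 0.0728, for Atp5g1. With SR4 library 1 alone, 21 of 40 had a fitted change above 0, 0 were higher at an unadjusted p under 0.05 (6.24%) and 4 were lower (7.04%), namely Uqcr10, Cycs, Cox7c and Atp5e. None passed after adjustment (0.0665% of all genes), and the smallest adjusted p was 0.25, for Atp5e. With SR4 library 1 alone and SR4 library 2 alone, the log2 fold changes were 0.32 and 0.73 for Sdhb, 0.22 and 0.45 for Sdhc, 0.18 and 0.49 for Uqcrfs1, and 0.27 and 0.49 for Atp5d. The count of 5 genes with an unadjusted p under 0.05 in all 5 libraries became 1 without vehicle library 1 or without vehicle library 2, and 3 without vehicle library 3. Over the whole table this count also fell, from 2253 of 10542 genes with all 5 libraries. It was 1763 of 10530, 1750 of 10535 and 2042 of 10529 without vehicle library 1, 2 and 3.

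Placed against the vehicle range, 15 genes were above, 10 within and 15 below in SR4 library 1, against 31.7%, 36.9% and 31.5% of all genes. In SR4 library 2, 35 were above, 4 within and 1 below, against 34.1%, 30.2% and 35.8% of all genes. With equal totals 6 were above and 21 below in SR4 library 1 (18.5% and 46.7% of all genes), and 30 were above and 2 below in SR4 library 2 (23.9% and 46.1%). For 10 genes SR4 library 2 was above and SR4 library 1 below the whole vehicle range (3.72% of all genes), and for 13 with equal totals (4.19%). Under TMM scaling these were Sdhd, Uqcrh, Cox6a1, Cox6c, Cox7a2, Cox7b, Atp5e, Atp5j, Atp5k and Atp5l.

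Within the set, the place of SR4 library 1 went with the length of the coding sequence, a split chosen after the values were seen. Of the 13 genes with a longest annotated coding sequence of at most 300 bases, 9 were below the vehicle range in SR4 library 1 and 0 above, with a median difference from vehicle of -0.34 on the log2 scale. The 198 genes of that length in the whole table had a median of -0.16. The vehicle libraries also differed by length. For these 198 genes the medians of vehicle libraries 1, 2 and 3 against the vehicle mean were 0.07, -0.09 and 0.02. For the 6491 genes over 1000 bases they were -0.01, 0.02 and -0.01. The 16 genes over 300 and up to 600 bases had 6 above and 6 below and a median of 0.03, against -0.05 for 1143 genes. The 6 genes over 600 and up to 1000 bases (Sdhb, Uqcrfs1, Cyc1, Atp5c1, Atp5f1 and Atp5o) had 4 above and 0 below and a median of 0.11, against 0.02 for 1977 genes. All 5 genes over 1000 bases (Sdha, Uqcrc1, Uqcrc2, Atp5a1 and Atp5b) were above, with a median of 0.15 against 0.01 for 6491 genes. With equal totals, SR4 library 1 was below the vehicle range for 12 of 13, 8 of 16, 1 of 6 and 0 of 5 genes in these groups, and above it for 0, 3, 2 and 1.

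SR4 library 2 did not follow that order. Its median differences were 0.32, 0.38, 0.48 and 0.34 in the same length groups, against 0.09, 0.10, 0.06 and -0.05 over all genes of those lengths. Across the 40 genes, Pearson's r between log2 coding length and the log2 difference from vehicle was 0.712 for SR4 library 1 (Spearman's rho 0.771) and 0.309 for SR4 library 2 (rho 0.374). Across 9809 genes with a coding length these r values were 0.013 and -0.110. With whole transcript length in place of coding length, r across the 40 genes was 0.436 and 0.073. These values describe genes measured in the same libraries, which are not independent replicates, and each length group holds fewer than 20 of the 40 genes. With the trend of all genes on coding length removed, 32 of the 40 had a fitted change above 0. Over all genes r was 0.013 for SR4 library 1, but r misses a trend that is not straight, and genes of at most 300 bases had a median of -0.16. This step takes out only the trend of all genes. How much of the relation within the 40 remained after it was not computed. The sign of the fitted change also does not measure the gap between the SR4 libraries. The part of length in the gap between the SR4 libraries was not tested further.

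**Figure D4:**
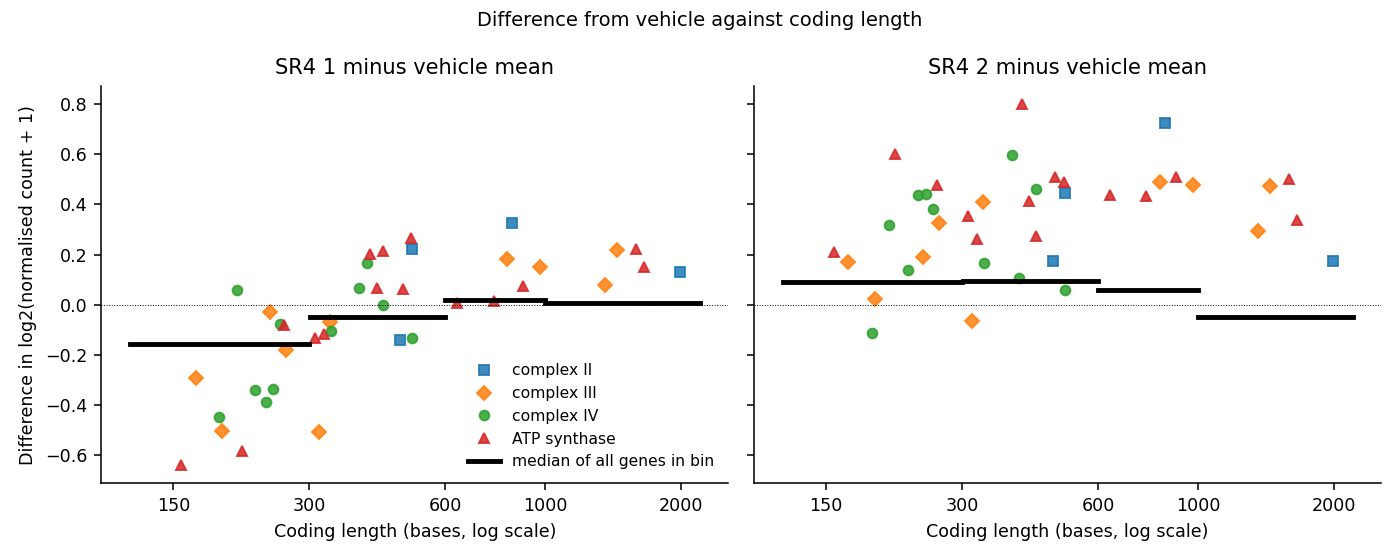
Log2 difference from the vehicle mean (y axis) against coding length in bases (x axis, log scale) for the 40 genes, in SR4 library 1 (left) and SR4 library 2 (right); black bars are medians of all genes in each length group. Genes with at most 300 coding bases have a median of -0.34 on the left and 0.32 on the right.

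Genes that work beside these complexes were taken from further lists. Of 36 complex I subunits, which feed electrons in from NADH, 0 passed in either direction (1.32% of all genes). Their median log2 fold change was 0.19, with -0.02 for SR4 library 1 alone and 0.35 for SR4 library 2 alone. For 36 of 36, SR4 library 2 exceeded SR4 library 1 (49.4% of all genes). Ndufa8 had the smallest p of them, with a log2 fold change of -0.47 (adjusted p = 0.103, or 0.0145 in DESeq2). It was counted at 3378, 2946 and 3233 in vehicle and at 2144 and 2444 in SR4, both SR4 libraries below all vehicle libraries.

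Assembly factors insert cofactors and join subunits, and 0 of them passed in either direction in limma (1.32% of all genes). Of complex II factors 2 of 4 were tested, and Sdhaf1 had the smaller p (log2 fold change -0.58, adjusted p = 0.134). The other, Sdhaf2, went the opposite way (0.25, adjusted p = 0.317). Of complex III factors 5 of 6 were tested, with a median of 0.20, and Bcs1l, which places the Rieske protein, had the smallest p (0.36, adjusted p = 0.221). Of complex IV factors 24 of 26 were tested, with a median of 0.04, and Cox19 had the smallest p (-0.64, adjusted p = 0.11, or 0.0262 in DESeq2). At an unadjusted limma p under 0.05, 3 of the 24 were higher (10.2% of all genes) and 1 was lower (11.1%). All 4 ATP synthase factors were tested, with a median of 0.06, and Atpaf2 had the smallest p (0.29, adjusted p = 0.271). Of 12 further subunits and tissue isoforms 6 were tested, 0 passed, and the median was -0.05, with Atp5s at 0.44 (adjusted p = 0.256).

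Of 9 transcriptional regulators of respiratory genes 8 were tested and 0 passed (1.32% of all genes), with a median log2 fold change of 0.13. Ppargc1a, a coactivator of mitochondrial gene expression, had the smallest p (log2 fold change 0.78, adjusted p = 0.18). Its counts were 159, 265 and 173 in vehicle and 410 and 271 in SR4, and here SR4 library 1 was the higher of the 2. Among 11 genes for other routes of electron entry and for nucleotide and phosphate exchange, 0 passed (1.32% of all genes) and the median was 0.15. Gpd2, the glycerol-3-phosphate dehydrogenase that feeds ubiquinone, had the smallest p. It was counted at 2071, 1727 and 1435 in vehicle and at 887 and 434 in SR4 (log2 fold change -1.47, adjusted p = 0.0829), with no overlap between the groups. Its adjusted p was 0.0284 with a replicate block and 0.00038 in DESeq2, so both called it. Of all 10542 genes the block fit called 452 and DESeq2 1079, against 139 in the main fit. The samples are not taken as paired.

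Liver identity and other cell types were checked with marker lists. Hepatocyte markers (7 of 8 tested) summed to 2121270 to 2792520 in vehicle and to 2896810 and 2342030 in SR4 libraries 1 and 2. Of these markers 0 passed (1.32% of all genes), and Alb made up most of the sum. Their log2 fold changes ran from -0.62 for Apob (adjusted p = 0.175) to 1.17 for Cps1, which had the smallest p (adjusted p = 0.129, or 0.00766 in DESeq2). Apoa1 (-0.47) and Ttr (-0.35) also lay below 0, and Alb (0.09), Fgb (0.65) and Serpina1c (0.95) above it; genes other than Cps1 were named after their values were seen. Kupffer cell and macrophage markers (5 of 7) summed to 2672 to 3430 in vehicle and to 2663 and 1309 in SR4 libraries 1 and 2, with 0 passing. Cd68 had the smallest p (-1.35, adjusted p = 0.108). Its adjusted p was 0.0231 with a replicate block (452 of all genes called) and 0.00907 in DESeq2 (1079 called). Endothelial markers (7 of 7) summed to 3567 to 5008 in vehicle and to 4865 and 2788 in SR4, and Clec4g had the smallest p (-0.31, adjusted p = 0.52). Stellate cell markers (7 of 7) summed to 7359 to 12501 in vehicle and to 7952 and 6131 in SR4, and Col1a1 had the smallest p (-1.61, adjusted p = 0.0856, or 0.000116 in DESeq2). SR4 library 2, the one with the higher counts for the respiratory genes, had the lowest sum of each of the last 3 lists. Its hepatocyte sum was also below that of SR4 library 1.

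Erythroid markers (5 of 5) summed to 15679 to 22038 in vehicle and to 12521 and 10581 in SR4, and 1 of them passed (1.32% of all genes). Their log2 fold changes ran from -1.17 to 0.23, with 1 of the 5 above 0 (49% of all genes). Hbb-bs, an adult beta-globin, fell from 2507 ± 285 to 1115 ± 123 (log2 fold change -1.17, adjusted p = 0.033). Its reads were fractions of a read and may be shared with its close copy Hbb-bt, and its adjusted p was 0.0867, 0.0599 and 0.13 without vehicle library 2, vehicle library 3 and SR4 library 2. Of the brown adipocyte list 3 of 4 were tested, and Cidea, a lipid droplet protein that fatty liver also makes, fell from 3034 ± 674 to 167 ± 125 (-4.38, adjusted p = 0.0364). Its adjusted p was 0.0541, 0.0949 and 0.086 without vehicle library 1, 2 and 3, and 0.0819 with a replicate block. Only Spp1 of 5 cholangiocyte markers (-0.77, adjusted p = 0.497) and only Ptprc of 6 lymphocyte markers (-0.93, adjusted p = 0.226) were tested. All 5 skeletal muscle markers were under the filter, with Ckm listed at 0 in every library. The part of cell makeup in the values of the respiratory genes was not tested.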

How the data were processed

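The 5 liver samples were grouped by treatment label, and the db/db genotype was taken from the series' design text. RNeasy Mini extraction and TruSeq RNA V2 libraries from 500 ng of total RNA are recorded per the labels' protocols; this kit does not mark strand. TopHat2 2.1.1, Partek and GRCm38 (mm10) are named per the submitters' processing notes. Counter, annotation and filters: not given in the sources used here. Antisense or overlapping transcripts therefore cannot be told apart from the genes named.

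The deposited signal values are gene counts that, as the values show, the authors or their software brought to 1 library size: each column sums to 25494249 within 0.0012%. Inverting the quantile adjustment of edgeR's equalizeLibSizes recovered reads, of which 85.3% of 37773 values between 1 and 1000 were whole within 0.02 reads. Of the 40 genes, 33 were whole in all 5 libraries (77.5% of all genes tested); Uqcr10, Cox7a2l, Cox7c, Atp5c1, Atp5f1, Atp5g1 and Atp5j held fractions of a read, and how reads that match several genes were counted is not stated. In 17 rows, with 0.18% of reads, the symbol had become a date; they entered no test.

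Values were divided by TMM factors (0.947 to 1.08), which gives the normalised counts. Genes at 10 or more in at least 2 libraries were tested with limma on log2(value + 1), with a mean trend and robust shrinkage, over the whole table, with Benjamini-Hochberg adjustment at 0.05. No test compared the 40 genes as a set. The members, lists and tests were chosen with earlier results of these data known. Full values are given by rule for complex II, for the 5 smallest p and the highest level per kilobase in each other complex, and for the subunit c genes; other lists give passing genes or the smallest p. Alternatives were RLE scaling, equal totals, pseudocounts of 0.5 and 10, a 1 CPM filter or none, shrinkage without the robust option, a replicate block, each library left out, and edgeR and DESeq2 on recovered reads rounded to whole numbers. Removal of a length trend (lowess, span 0.3), summed levels and vehicle ranges with equal totals, and ATP synthase sums without Atp5a1 and Atp5b were added after the data were seen. Coordinates and lengths are from GENCODE M21 (GRCm38). Calculations used R 4.3.3, limma 3.58.1, edgeR 4.0.16, DESeq2 1.42.0, Python 3.11.15 and matplotlib 3.10.9. The limma procedure was tested on simulated data.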

Additional observations from a re-analysis of the deposited data

How the results depend on the processing

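None of the 40 genes passed an adjusted p of 0.05 in limma under any alternative; DESeq2 called 1, Sdhb, at a log2 fold change of 0.54. Under RLE scaling, both pseudocounts, both filters, no robust shrinkage and edgeR, each of the 40 genes kept its direction. With equal totals, the all-gene median went from -0.01 to -0.13, that of complex II from 0.24 to 0.13 and of complex IV from 0.05 to -0.066; the number of genes above 0 went from 33 to 24, and of genes above the vehicle range in both SR4 libraries from 15 to 6. The genes that turned were Sdhd (-0.10), Uqcrq (-0.038), Uqcrh (-0.045), Cox6a1 (-0.088), Cox7a2 (-0.066), Cox7b (-0.094), Atp5j (-0.044), Atp5k (-0.11) and Atp5l (-0.009).

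Removing a transcript length trend turned Sdhd (-0.055), Cox6a1 (-0.0093), Cox7b (-0.043) and Atp5k (-0.0066), and removing a coding length trend turned Sdhd (-0.0061). Replicate numbers 1 and 2 are shared by the groups but the labels tie them to nothing. Deviations from the group means correlated at 0.174 for number 1 and 0.112 for number 2, and with only 2 shared numbers the samples are not taken as paired. A fit with the replicate number as a block turned Sdhd (-0.013), Uqcr11 (0.054), Cox4i1 (0.034), Cox7a2 (-0.023) and Cox7b (-0.018) and called 452 genes of the whole table in place of 139.

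Leaving out each library in turn, the median log2 fold change ran from 0.18 to 0.31 for complex II, from -0.048 to 0.31 for complex III, from -0.11 to 0.32 for complex IV and from 0.06 to 0.44 for ATP synthase; the lowest value came without SR4 library 2 and the highest without SR4 library 1. The direction of 17 genes turned in at least 1 of these fits, with these lowest and highest values: Sdhd (-0.14 to 0.17), Uqcrb (-0.068 to 0.41), Uqcrq (-0.029 to 0.19), Uqcrh (-0.18 to 0.33), Uqcr10 (-0.50 to 0.024), Uqcr11 (-0.29 to 0.17), Cox4i1 (-0.13 to 0.059), Cox6a1 (-0.11 to 0.17), Cox6b1 (-0.075 to 0.38), Cox6c (-0.34 to 0.14), Cox7a2 (-0.34 to 0.44), Cox7b (-0.39 to 0.44), Atp5e (-0.64 to 0.21), Atp5j (-0.12 to 0.26), Atp5j2 (-0.080 to 0.48), Atp5k (-0.58 to 0.60) and Atp5l (-0.13 to 0.35). Over the whole table the calls numbered 108, 8, 5, 192 and 7 without vehicle library 1, 2 and 3 and SR4 library 1 and 2, and 1079 with DESeq2. Each value rests on 643 or more recovered reads, and precision is limited by the number of libraries, with 2 for SR4.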
